A study of Mus musculus with 72 samples.

Results

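Motile cilium genes were taken from mouse lung as every gene whose symbol starts with Dnah, Dnaic, Dnali, Dnaaf, Rsph, Tekt, Cfap or Ift followed by a digit, plus Foxj1. The rule found 71 of the 23930 genes in the count table. Of these, 56 were axonemal, meaning neither Foxj1 nor Ift: 24 Cfap, 15 Dnah, 5 Rsph, 5 Tekt, 4 Dnaaf, 2 Dnaic and 1 Dnali gene. The other 14 besides Foxj1 were Ift genes. All mice were Gprc5a-/-, lacking a G protein-coupled receptor gene of the lung epithelium, and all but the baseline animals had been given NNK, a nitrosamine carcinogen of tobacco. Needle-dissected lung tumors came from the end of NNK exposure (16 weeks of age, 4 tumors of 3 animals), 3 months later (28 weeks, 6 tumors of 4 animals) and 7 months after exposure (44 weeks, 23 tumors of 9 animals). Normal-appearing lung came from unexposed animals at baseline (8 weeks, n = 10), and from exposed animals at the end of exposure (n = 10), 3 months (n = 9) and 7 months (n = 10). Tumors and lungs together came from 39 animals, and each of the 33 tumors had the normal lung of the same animal beside it. No unexposed mouse was older than 8 weeks and no mouse carried Gprc5a, so NNK, age and time in the normal lungs cannot be told apart, and nothing here compares genotypes.

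The libraries held 7459147 to 21822522 counts, with a median of 15253584.5. The targeted gene, Gprc5a, had 0 to 4 counts in a library and 0 in 41 of 72, which reached no more than 0.316 CPM. Levels are CPM, the count of a gene per 1000000 counts of its library, scaled with the trimmed mean of M values. Each gene was read by a single amplicon, so a level can be compared between libraries but not between genes. The tissue was bulk lung or bulk tumor, so fewer cells of a type and less RNA per cell cannot be told apart in any of these values. The animal names carry a letter, M or F, that the labels do not define. The inactive X chromosome's transcript Xist was found at 0.0 to 1.32 CPM in the 36 libraries with M and at 640 to 5822 CPM in the 36 with F. The sum of the Y-linked genes Ddx3y, Eif2s3y, Uty and Kdm5d lay at 185 to 437 CPM with M and at 0.0 to 0.0815 CPM with F. By these transcripts the libraries with M were male and those with F female, without overlap.

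A motile cilium beats because dynein motors slide the outer microtubule doublets of its core, the axoneme, against each other. Dnah, Dnaic and Dnali genes encode dynein heavy, intermediate and light intermediate chains, and Dnaaf genes encode factors that assemble the dynein arms in the cytoplasm. Rsph genes encode radial spoke proteins, Tekt genes encode tektin filaments of the doublets, and Cfap is a collective name for proteins associated with cilia and flagella. Foxj1 is the forkhead transcription factor that turns on the motile cilium program, which in the lung belongs to the multiciliated cells of the airways. Ift genes encode intraflagellar transport, the cargo system that builds both motile cilia and the non-motile primary cilium found on many other cell types. The axonemal and Ift genes are therefore set against each other.

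Promoters are shown because axonemal and Ift genes, which moved by different amounts, hold partly the same short motifs. RefSeq promoters (GRCm38.p6), of 300 bases with 250 before and 50 after the annotated gene start, were at hand for 58 of the 71 genes. A motif pattern of the X-box, the site of the Rfx factors that control ciliary genes, was searched on both strands as GTNNCC, then NNN, then GNNAC. It was held by 14 of 47 axonemal genes (29.8%), 2 of 11 Ift genes (18.2%) and 5.26% of all 27025 genes with a promoter. A gene was counted once, as holding the letters if any of its promoters did. The shorter letters GTTGCC, also searched on both strands, could overlap the X-box pattern. They were held by 17 of 47 axonemal genes (36.2%), 5 of 11 Ift genes (45.5%) and 14.1% of all genes with a promoter. The forkhead letters GTAAACA were held by 4 of 47 axonemal genes (8.51%), 0 of 11 Ift genes and 4.05% of all genes with a promoter. A match says only that these letters are in the window. The following promoters are those of a tektin gene, a dynein heavy chain gene, a Cfap gene and one of the Ift genes that hold 2 matches, Ift22 being the other, with the X-box pattern in capitals. They run 5′ to 3′ on the strand of the gene: Tekt1 at chr11:72361833-72362132 (minus strand), Dnah10 at chr5:124724835-124725134 (plus), Cfap44 at chr16:44394549-44394848 (plus) and Ift57 at chr16:49699044-49699343 (plus).
Tekt1: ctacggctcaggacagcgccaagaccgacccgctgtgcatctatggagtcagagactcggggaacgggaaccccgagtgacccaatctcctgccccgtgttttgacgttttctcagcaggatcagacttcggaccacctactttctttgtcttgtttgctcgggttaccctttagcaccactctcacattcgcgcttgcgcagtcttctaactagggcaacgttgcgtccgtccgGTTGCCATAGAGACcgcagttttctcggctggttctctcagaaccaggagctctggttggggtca
Dnah10: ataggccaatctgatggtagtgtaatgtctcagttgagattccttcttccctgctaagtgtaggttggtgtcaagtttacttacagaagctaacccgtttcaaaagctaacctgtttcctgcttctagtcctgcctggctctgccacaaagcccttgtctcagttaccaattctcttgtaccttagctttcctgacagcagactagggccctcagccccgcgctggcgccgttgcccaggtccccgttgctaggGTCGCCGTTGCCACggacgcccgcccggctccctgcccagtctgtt
Cfap44: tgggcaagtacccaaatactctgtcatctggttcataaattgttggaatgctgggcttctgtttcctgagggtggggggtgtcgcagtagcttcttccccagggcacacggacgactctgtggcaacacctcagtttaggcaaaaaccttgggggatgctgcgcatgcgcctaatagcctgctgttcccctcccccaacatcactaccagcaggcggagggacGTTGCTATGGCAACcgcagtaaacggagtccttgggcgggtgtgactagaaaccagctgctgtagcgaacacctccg
Ift57: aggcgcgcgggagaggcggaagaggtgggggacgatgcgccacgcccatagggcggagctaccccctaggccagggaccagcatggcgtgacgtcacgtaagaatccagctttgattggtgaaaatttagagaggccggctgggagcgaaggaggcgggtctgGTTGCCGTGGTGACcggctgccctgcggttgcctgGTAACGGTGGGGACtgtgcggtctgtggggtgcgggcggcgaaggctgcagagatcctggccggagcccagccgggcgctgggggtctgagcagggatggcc
The match in Tekt1 began 15 bases before the gene start and the match in Cfap44 27 bases before it. In all 4 promoters at least 1 X-box match shared bases with GTTGCC or its reverse, GGCAAC. These 4 were picked from 7 promoters chosen for holding both patterns, so they do not stand for all members with an X-box match. In Dnaaf5, another of the 7, GGCAAC lay outside the X-box match. Other members, among them Cfap45, Rsph9 and Ift22, held the X-box pattern without GTTGCC or its reverse.

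Foxj1 and nearly all axonemal genes were far lower in tumors, while the Ift genes were lower by much less and several did not change beyond the test. In the mean over 16 animals, with equal weight for each, 50 of 55 tested axonemal genes fell, 1 rose and 4 were not called. Foxj1 fell, 10 of 14 Ift genes fell and 4 Ift genes were not called. Calls rest on edgeR's quasi-likelihood test of counts summed over the tumors of an animal, with the animal as a block and a Benjamini-Hochberg adjusted p under 0.05 over all 15457 genes tested. By that rule 25.4% of all tested genes fell and 24.3% rose, 49.7% in all. The median log2 fold change, tumor over own lung, was -3.82 for axonemal genes, -0.79 for Ift genes and -0.01 for all genes. With libraries scaled by total counts alone the median of all genes moved to -0.24, rises made up 26.9% of all calls against 48.9% in the main scaling, and 53 axonemal and 11 Ift genes fell.

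Foxj1 stood at 0.0 CPM in the lowest of 33 tumors, 11.6 CPM in the median and 274 CPM in the highest. The 39 normal lungs held 106 CPM at the lowest, 252 CPM at the median and 608 CPM at the highest. Tumors lay below their own lung in 32 of 33 cases and below every normal lung in 30, so the 2 sets overlapped through 3 tumors. Foxj1 was under 1 CPM in 9 tumors, under 10 CPM in 16 and over 50 CPM in 8. It fell by 4.21 ± 0.79 on the log2 scale (SE, 16 animals, edgeR adjusted p = 0.000383). The mean CPM over the tumors of an animal was below its own lung in 16 of 16 animals. The median tumor held 3.95% of the Foxj1 level of its own lung.

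**Figure D1:**
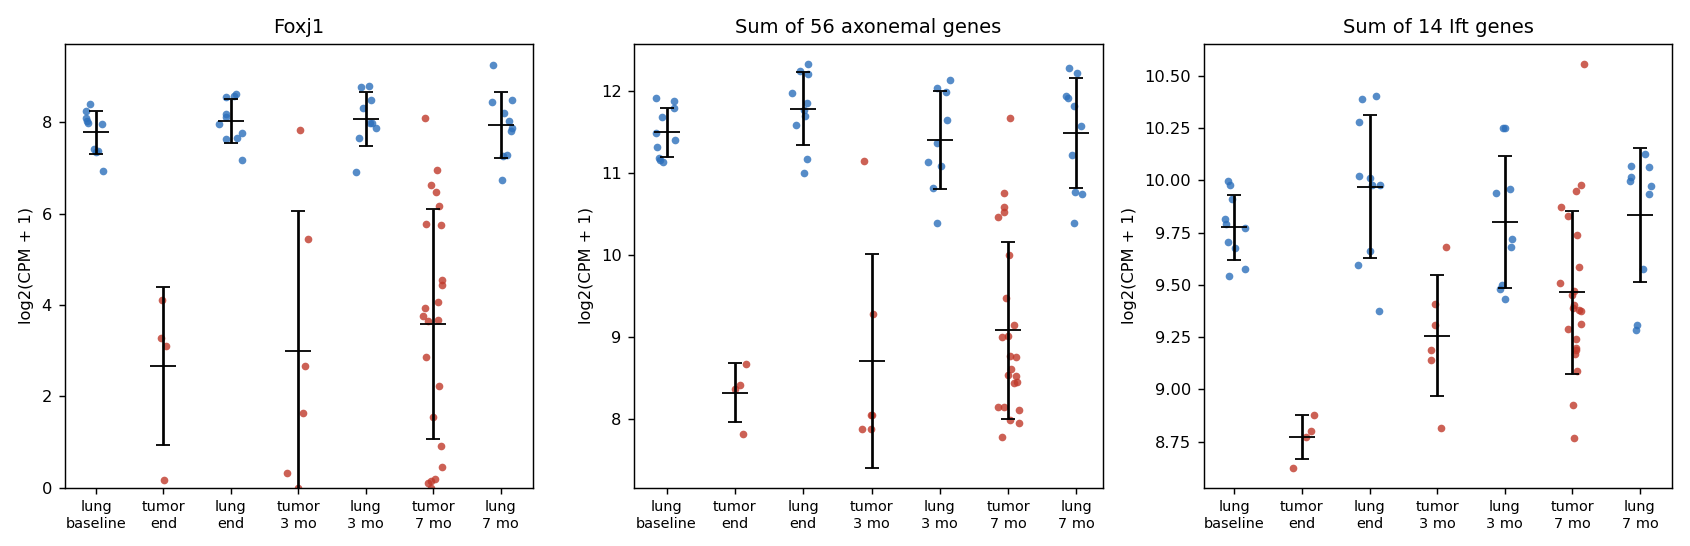
Levels of Foxj1, the summed axonemal genes and the summed Ift genes by library, on a log2(CPM + 1) scale, with tumors beside the normal lungs of each time and bars for the mean and SD of the log2 values. Foxj1 in tumors runs between 0.0 and 274 CPM, while the Ift sums of tumors and normal lungs overlap widely.

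Dynein genes showed the pattern gene by gene. Dnah9, a heavy chain of the outer arm, stood at 0.0, 7.06 and 160 CPM (lowest, median and highest of 33 tumors), against 45.0, 129 and 336 CPM in the 16 matched lungs. It fell by 4.32 ± 0.81 (log2, edgeR adjusted p = 0.000379). Dnah5, the other main outer arm heavy chain, stood at 0.0, 2.76 and 117 CPM in tumors, against 33.5, 67.6 and 150 CPM in matched lungs. Most tumors lay far below any lung and a few reached the lungs' range, and 32 of 33 were below their own lung. The fall of Dnah5 was 4.53 ± 0.87 (edgeR adjusted p = 0.00048). Of 15 Dnah genes, 13 fell, and Dnah8 and Dnah17 were not called. Dnah7a, Dnah7b and Dnah7c fell too (-4.24, -2.96 and -4.19), but they are close copies of each other and reads may have been shared among them. Dnah14 fell by 2.71 ± 0.84 (edgeR adjusted p = 0.0132) from a mean of only 0.229 CPM over all 72 libraries, so its value is poorly measured.

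The intermediate chain genes Dnaic1 and Dnaic2 fell by 3.74 ± 0.77 and 3.88 ± 0.63 (edgeR adjusted p = 0.000776 and 0.000112). Dnali1, the light intermediate chain of the inner arm, stood at 0.0, 7.32 and 228 CPM in tumors, against 60.8, 158 and 344 CPM in matched lungs. It lay below the own lung in 32 of 33 tumors and fell by 4.27 ± 0.83 (edgeR adjusted p = 0.000538). The assembly factors split. Dnaaf1 and Dnaaf3 fell by 4.09 ± 0.78 and 3.62 ± 0.55, whereas Dnaaf2 fell by 1.09 ± 0.33 and Dnaaf5 by 0.63 ± 0.15 (edgeR adjusted p = 0.0106 and 0.00187). For Dnaaf5 the tumors held 10.4, 19 and 48.9 CPM, against 16.3, 30.1 and 51.0 CPM in matched lungs, and the ranges nearly coincided.

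All 4 tested radial spoke genes fell, as did 4 of 5 tektin genes, Tekt5 being the exception. Rsph1, a spoke head protein, stood at 2.03, 21.7 and 373 CPM in tumors, against 57.5, 217 and 586 CPM in matched lungs, and fell by 3.43 ± 0.58 (edgeR adjusted p = 0.000154). Of the spoke genes Rsph9 fell least, by 2.15 ± 0.27. Rsph6a, known from sperm, averaged 0.00992 CPM and was not tested. Tekt1 stood at 0.0, 4.36 and 88.4 CPM in tumors, against 37.3, 84.2 and 134 CPM in matched lungs. It fell by 3.69 ± 0.59 (edgeR adjusted p = 0.000102) and lay below the own lung in 31 of 33 tumors. Tekt2 lay below the own lung in all 33 tumors and fell by 2.93 ± 0.32. Tekt3 fell by 3.49 ± 0.51 from a mean of 0.772 CPM over all libraries.

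Among the 24 Cfap genes, 22 fell, Cfap97 rose and Cfap36 was not called. Cfap45, a microtubule inner protein of the doublets, stood at 3.07, 11.4 and 169 CPM in tumors, against 74.0, 153 and 316 CPM in matched lungs. Tumors were lower than their own lung in 31 of 33 cases and the fall was 2.99 ± 0.40 (edgeR adjusted p = 1.98e-05). The largest falls of any tested member were in Cfap46, a protein of the central pair apparatus, by 4.77 ± 0.68, and in Cfap73, by 4.57 ± 0.71. Cfap157 fell by 2.56 ± 0.44 from a mean of 0.397 CPM, so its value is poorly measured too. Cfap20, a doublet protein also expressed outside ciliated cells, fell by only 0.50 ± 0.13 (edgeR adjusted p = 0.00475).

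The axonemal genes that did not pass the test for a fall in tumors were Dnah8, Cfap36, Tekt5, Dnah17 and Cfap97. Dnah8, a dynein heavy chain known chiefly from sperm, stood at 1.6, 17.9 and 75.5 CPM in tumors, against 4.84, 28.9 and 63.2 CPM in matched lungs. The 2 ranges overlapped almost wholly, 23 of 33 tumors were below their own lung, and the log2 fold change was -0.41 ± 0.22 (edgeR adjusted p = 0.138). Cfap36, which binds the small GTPase Arl3, stood at 33.1, 109 and 400 CPM in tumors, against 68.2, 153 and 271 CPM in matched lungs (log2 fold change -0.38 ± 0.17, edgeR adjusted p = 0.0789). Tekt5, a sperm tektin, was low in both, with medians of 2.01 CPM in tumors and 2.53 CPM in matched lungs (-0.09 ± 0.17, edgeR adjusted p = 0.696). Dnah17, likewise known from sperm, averaged 0.624 CPM and is poorly measured. Its log2 fold change was -1.02 ± 0.48 (edgeR adjusted p = 0.0877). With total counts alone Cfap36, Dnah8 and Dnah17 passed as falls (log2 fold changes -0.61, -0.65 and -1.25, edgeR adjusted p = 0.00314, 0.0259 and 0.0424). Cfap36 and Dnah17 also passed with DESeq2 (adjusted p = 0.0384 and 0.0281), Dnah17 without the animal block (edgeR adjusted p = 0.02), and Dnah8 with each tumor library on its own (edgeR adjusted p = 0.0472). Cfap97 stood at 12.4, 32.8 and 50.3 CPM in tumors, against 10.3, 23.6 and 39.5 CPM in matched lungs, and 25 of 33 tumors were above their own lung. Its rise of 0.45 ± 0.17 (edgeR adjusted p = 0.041) lost the call when any of 10 of the 16 animals was left out (adjusted p up to 0.0773): those with end-of-exposure lung replicates 9 and 10, 3-month replicates 1, 3 and 8, or 7-month replicates 4, 6, 8, 9 and 10. It also lost the call when libraries were scaled by total counts alone (0.22, edgeR adjusted p = 0.373) or by size factors of the DESeq2 kind (0.40, edgeR adjusted p = 0.0563), though not with DESeq2 itself. Cfap36, Cfap20, Dnah8, Dnaaf5 and Cfap97 together made 57.3 ± 25.1% of the axonemal sum in tumors (SD, n = 33) and 11.1 ± 2.04% in normal lungs (SD, n = 39). Of these 5, Cfap20 and Dnaaf5 were called as small falls. The 5 are genes that fell little or not at all in these tumors, so their higher share there follows from the choice.

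Ift genes fell less. Ift88, a core subunit of the IFT-B train, stood at 6.96, 16.3 and 47.4 CPM in tumors, against 28.8, 43.2 and 73.9 CPM in matched lungs, and was below the own lung in all 33 tumors. It fell by 1.24 ± 0.16 (edgeR adjusted p = 1.05e-05), and the median tumor held 41.3% of the level of its lung. Ift57, also of IFT-B, stood at 26.1, 54.9 and 206 CPM in tumors, against 47.9, 160 and 300 CPM in matched lungs, and fell by 1.10 ± 0.18 (edgeR adjusted p = 0.00012). The ranges overlapped, with 31 of 33 tumors below their own lung. The other falls in IFT-B were Ift74 (-1.82 ± 0.62), Ift22 (-1.18 ± 0.16), Ift81 (-0.98 ± 0.16), Ift27 (-0.80 ± 0.17), Ift172 (-0.78 ± 0.12) and Ift46 (-0.49 ± 0.11). Ift74 had the widest spread, at 0.314 to 30.7 CPM in tumors and 1.38 to 107 CPM in matched lungs. Of the 3 subunits of IFT-A, the complex of return transport, that carry an Ift symbol, Ift43 fell by 0.92 ± 0.14 and Ift122 by 0.50 ± 0.16, while Ift140 was not called (-0.31 ± 0.13, edgeR adjusted p = 0.0608). Ift140 did pass as a fall with total counts, size factors of the DESeq2 kind, DESeq2, no animal block, or without the tumors highest in Foxj1 or Krt5 (adjusted p = 0.00136 to 0.0413).

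The other Ift genes that were not called all belong to IFT-B. Ift52 had log2 fold change -0.04 ± 0.13 (edgeR adjusted p = 0.806) and Ift80 had 0.04 ± 0.13 (edgeR adjusted p = 0.827), the values nearest to no change among the Ift genes. With total counts alone the value of Ift80 was -0.19 (edgeR adjusted p = 0.169). Ift20, which also serves sorting at the Golgi, stood at 77.3, 238 and 1021 CPM in tumors, against 103, 182 and 289 CPM in matched lungs. Some tumors rose above any lung, 22 of 33 were above their own, and the log2 fold change was 0.40 ± 0.16 (edgeR adjusted p = 0.052). It passed as a rise without the animal block or without the tumors highest in Foxj1 or Krt5 (edgeR adjusted p = 0.0284 to 0.0472). The sum of the 14 Ift genes was below the own lung in 28 of 33 tumors, and the axonemal sum in 32 of 33. The ratio of axonemal to Ift sum, of use only between libraries, was 0.313 to 3.24 with a median of 0.745 in tumors and 1.88 to 4.86 with a median of 3.35 in normal lungs.

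**Figure D2:**
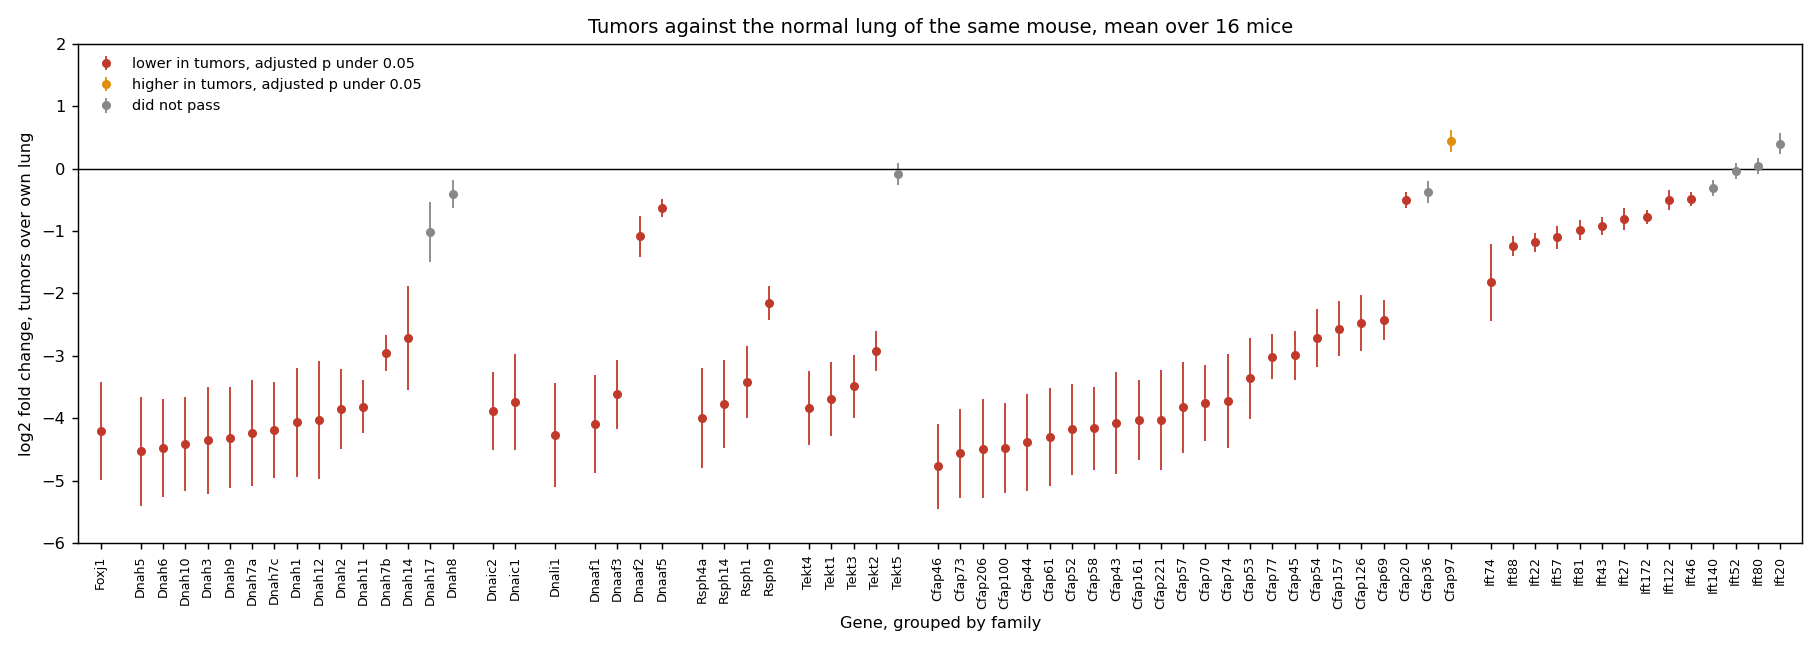
Log2 fold change of each tested member in tumors over the own lung, mean over 16 animals with its SE, grouped by family. The median of all axonemal genes is -3.82 and that of the Ift genes -0.79, the Dnaaf family has a median of -2.35, and Dnah8, Tekt5, Cfap36 and Cfap97 lie between -0.41 and 0.45.

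Other cell types moved in the same tumors. The club cell and secretory airway list, cells that share the airway lining with ciliated cells, had 15 of 15 genes down with a median log2 fold change of -3.19. Its summed level was 484 to 59197 CPM in tumors and 12785 to 138791 CPM in normal lungs. Scgb1a1, the main club cell secretoglobin, had a median of 10.2% of the level of the own lung in tumors. Cardiac muscle genes, which in mice also line the pulmonary veins, were down in 7 of 7 with a median of -5.43, at 2.9 to 372 CPM in tumors and 161 to 6233 CPM in normal lungs. Alveolar type 2 markers were up in 10 of 12 with a median of 1.66, at 22981 to 380830 CPM in tumors and 17385 to 98165 CPM in normal lungs. In the tumors of the end of exposure, the airway gene Reg3g and the muscle gene Sln were at 0 in every library. The part of these cell types in the fall of the cilium genes was not tested.

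Related genes outside the family names fell too. Of 45 tested further axonemal and ciliated cell genes, 44 fell, with a median log2 fold change of -3.59. Hydin, of the central pair, fell by 4.18 ± 0.71, and Ccdc39, of the ruler that spaces the dynein arms, fell by 3.77 ± 0.76. Of 10 tested regulators of ciliated cells, 8 fell and 1 rose. Mcidas and Gmnc, which start multiciliation, fell by 3.97 ± 0.58 and 3.64 ± 0.42, and the Rfx factors Rfx3 and Rfx2 by 1.53 ± 0.17 and 1.01 ± 0.23. Of 18 intraflagellar transport subunits and motors with other symbols, 12 fell, with a median of -0.79, equal to that of the Ift genes. Of 23 tested BBSome and primary cilium genes, 20 fell, with a median of -0.84. All values are from the same edgeR fit.

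By time, edgeR called fewest members at the end of exposure and most at 7 months, with 3, 4 and 9 animals at the times in order. The counts did not follow the size of the fall. Median log2 fold changes of axonemal genes were -4.59 at the end of exposure, -3.79 at 3 months and -3.60 at 7 months. Those of Ift genes were -0.96, -0.65 and -0.79. At the end of exposure (3 animals) 9 axonemal and 4 Ift genes fell, against 2.65% of all genes falling, 1.97% rising and 4.61% in all. These 13 calls became 0 when any of the 3 animals (lung replicates 2, 9 and 10) was left out, 20 without the tumor that held over 1000 CPM of the basal keratin Krt5, and 34 without the 2 later tumors over 200 CPM of Foxj1, while DESeq2 called 53. Foxj1 stood at 0.127, 7.59, 8.69 and 16.4 CPM in the 4 tumors, against 143, 198 and 276 CPM in their 3 lungs, with no overlap, and its log2 fold change was -4.52 (edgeR adjusted p = 0.11). At 3 months (4 animals) 17 axonemal and 2 Ift genes fell, against 10.2% of all genes falling, 9.52% rising and 19.7% in all, and DESeq2 called 50 members where edgeR called 19. At 7 months (9 animals) 47 axonemal genes, Foxj1 and 8 Ift genes fell, against 19.8% of all genes falling. Ift20 rose by 0.59 ± 0.22 (edgeR adjusted p = 0.0452), against 18% of all genes rising and 37.8% called in all. The rise of Ift20 lost its call without the animal of 7-month lung replicate 1, 2, 3, 6 or 10 (adjusted p up to 0.116), with total counts alone (0.34, edgeR adjusted p = 0.167) and with size factors of the DESeq2 kind (0.54, edgeR adjusted p = 0.072). At 7 months the fall of Dnaaf5 lost its call without the animal of lung replicate 4, 5, 6, 8, 9 or 10 (up to 0.0977), and that of Dnah12 without replicate 2, 4, 5 or 8 (up to 0.0626). Foxj1 at 7 months stood at 0.0, 12.5 and 274 CPM in the 23 tumors, against 106, 247 and 608 CPM in the 10 normal lungs, and fell by 4.12 ± 1.06 (edgeR adjusted p = 0.00637).

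The effect at 7 months minus the mean of the earlier effects was called in 0 of 15457 genes by edgeR, with 829 genes and 0 members at an unadjusted p under 0.05. DESeq2 called 6 genes in that contrast and 0 members. The median difference was 0.38 (log2) for axonemal and 0.18 for Ift genes. A miss of the threshold does not show that the times were alike. The mix of animal letters also differed between the times. Tumors numbered 2 with F and 2 with M at the end of exposure, 5 and 1 at 3 months, and 9 and 14 at 7 months. The part of the letter in the tumor values was not tested.

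At 3 months Foxj1 held 0.0, 0.253, 2.11, 5.33, 42.4 and 229 CPM in the 6 tumors, and the highest lay above its own lung at 120 CPM, the only such case among 33. The other tumor of that animal was the one at 0.0. Without this animal the 3-month count was 50 members, and without each of the other animals, whose lungs are replicates 1, 3 and 8, it was 6, 4 and 4, against 19 with all. Without the 2 tumors over 200 CPM of Foxj1 it was 52. The log2 fold change of Foxj1 at 3 months was -4.17 ± 1.70 with all tumors (edgeR adjusted p = 0.0914).

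Tumors of 1 animal lay far apart in Foxj1 in some animals and close together in others. The spread within animals was not compared with that between them. In the 7-month animals of lung replicates 6 and 9, the tumors held 0.369 and 0.105 CPM, and 0.143 and 0.0 CPM. In the 7-month animal with 7 tumors, Foxj1 stood at 0.0696, 1.93, 11.6, 11.8, 14.2, 22.4 and 71.0 CPM, against 294 CPM in its lung. In another 7-month animal the tumors held 6.25, 88.2 and 274 CPM, against 358 CPM in its lung. The axonemal sum of those 3 tumors was 390, 1724 and 3264 CPM, against 4972 CPM in the lung, and followed the order of Foxj1. In the 3-month animal with the highest tumor, the axonemal sum was 2262 CPM in the tumor with Foxj1 and 236 CPM in the tumor without it, against 1341 CPM in the lung. Scgb1a1 in that pair of tumors stood at 49632 and 287 CPM, against 10188 CPM in the lung, so the club cell gene moved with Foxj1 there, and its part was not tested.

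**Figure D3:**
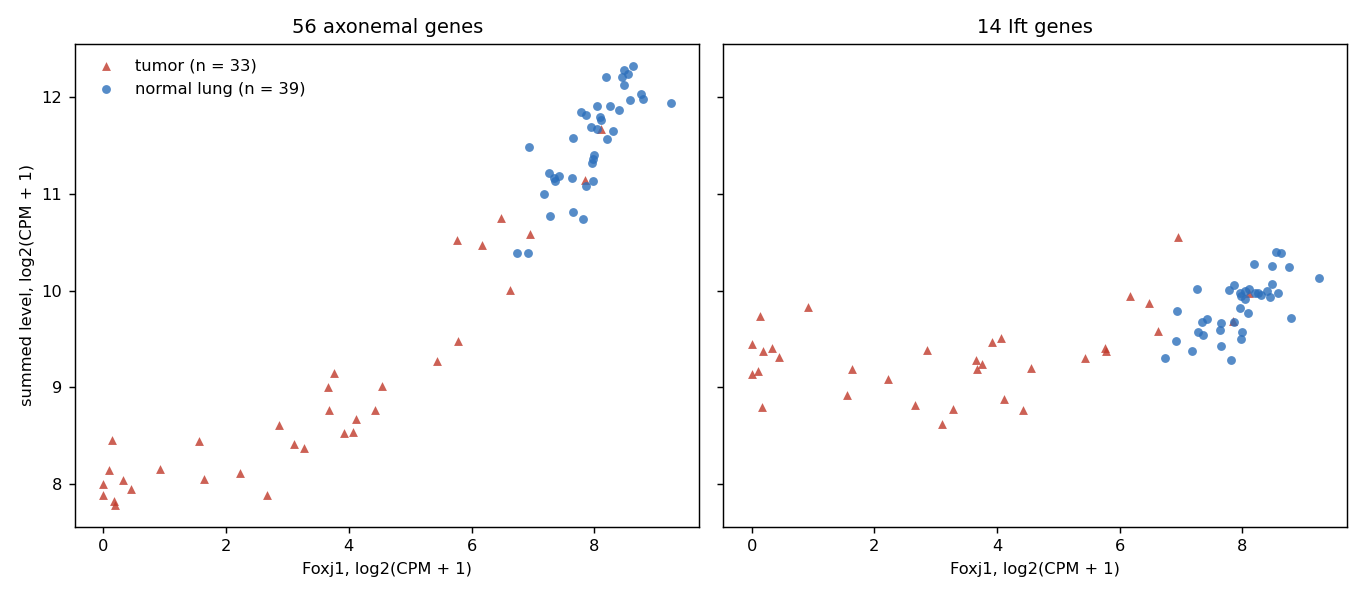
Summed axonemal genes and summed Ift genes against Foxj1 in all 72 libraries, each axis on a log2(CPM + 1) scale. Tumors with little Foxj1 lie on a floor of 220 CPM or more in the axonemal sum, and the Ift sum is 394 to 1505 CPM in tumors and 622 to 1355 CPM in normal lungs.

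In normal lung few members were called at any time after NNK. Of 69 tested members, 2 rose at the end of exposure, 1 fell at 3 months, and 1 rose and 2 fell at 7 months, each against baseline. Of all genes tested, 2.50% rose and 1.61% fell at the end of exposure (4.11% in all). At 3 months 1.09% rose and 0.637% fell (1.72%), and at 7 months 7.52% rose and 5.31% fell (12.8%). With both directions pooled, the share of members called was below the background each time. By direction it was above the background for rises at the end of exposure and for falls at 3 months. So few calls carry little weight either way. The 3 comparisons share the baseline lungs. The median log2 fold changes at the end of exposure, 3 months and 7 months were 0.31, 0.03 and 0.05 for axonemal genes, 0.22, 0.07 and -0.01 for Ift genes and -0.00, 0.01 and 0.02 for all 14907 genes. These values pool animals of both letters, whose axonemal medians against baseline had opposite signs at the later times: 0.52 in M and -0.50 in F at 3 months, and 0.37 in M and -0.29 in F at 7 months. For all 71 members the values of every later time overlapped those at baseline. The same was not counted over all genes, so nothing particular to the members can be read from it.

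Foxj1 averaged 230 ± 70.7 CPM at baseline, 272 ± 87.0 at the end of exposure, 290 ± 107 at 3 months and 274 ± 144 at 7 months (SD). The ranges were 122 to 337, 143 to 394, 120 to 441 and 106 to 608 CPM, and they overlap throughout. Its log2 fold changes of 0.25 ± 0.24, 0.34 ± 0.25 and 0.27 ± 0.24 against baseline were not called (edgeR adjusted p = 0.628, 0.679 and 0.487). The axonemal sum averaged 2940, 3662, 2904 and 3131 CPM and the Ift sum 881, 1027, 912 and 931 CPM at the 4 times in order. Both were highest on average at the end of exposure, with ranges that overlapped those of the other times.

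Cfap53, a microtubule inner protein of the doublets, stood at 4.33, 8.28 and 11.9 CPM at baseline (lowest, median and highest), at 8.58, 18 and 35.8 CPM at the end of exposure, at 4.13, 11.2 and 27.6 CPM at 3 months and at 5.14, 23.8 and 36.3 CPM at 7 months. The lungs after exposure reached higher than any at baseline, with overlap at the low end. It rose by 1.21 ± 0.32 at the end of exposure (edgeR adjusted p = 0.0221) and by 1.37 ± 0.32 at 7 months (edgeR adjusted p = 0.00474). Cfap52, another such protein, stood at 25.3, 53.3 and 99.3 CPM at the end of exposure, against 20.8, 29.6 and 37.2 CPM at baseline, and rose by 1.0 ± 0.26 (edgeR adjusted p = 0.0204). Both calls at the end of exposure were lost without lung replicate 5 of that time (edgeR adjusted p = 0.0537 for Cfap53 and 0.0508 for Cfap52), and without replicate 2 of that time 5 members were called.

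Dnah8 was the only member called at 3 months. It stood at 9.44, 42.1 and 53.7 CPM at baseline, 27.8, 50.5 and 65.8 CPM at the end of exposure, 4.72, 8.06 and 28.5 CPM at 3 months and 4.84, 29.8 and 63.2 CPM at 7 months. The 3-month lungs lay mostly below those of the other times, and the fall against baseline was 1.47 ± 0.34 (edgeR adjusted p = 0.0137). Leaving out any lung of the 2 groups kept that call. At 7 months Tekt2 stood at 7.74, 18.6 and 48.1 CPM, against 35.5, 47.3 and 55.7 CPM at baseline, and fell by 0.81 ± 0.23 (edgeR adjusted p = 0.0154). Dnaaf2 stood at 2.84, 11.6 and 17.7 CPM at 7 months, against 13.4, 18.4 and 24.6 CPM at baseline, and fell by 0.65 ± 0.19 (edgeR adjusted p = 0.0211). Most 7-month lungs lay low for both genes, with some overlap, and these calls and that of Cfap53 held without any 1 lung of the 2 groups. The count of members called at 7 months was 6 without lung replicate 3 of that time and 5 without replicate 2, 4 or 6, against 3 with all.

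Between exposed lungs, 7 months against the end of exposure, 1 of 69 members was called, against 5.75% of all genes, 3.27% rising and 2.48% falling. Ift140 stood at 20.2, 29.9 and 40.6 CPM at 7 months, against 27.3, 43.0 and 68.9 CPM at the end of exposure, and fell by 0.58 ± 0.17 (edgeR adjusted p = 0.0316). The groups overlap over most of their range, and the call was lost when any of 9 of 20 lungs was left out (adjusted p up to 0.0892): replicates 2, 3, 7, 8 and 9 at 7 months and 4, 5, 6 and 10 at the end of exposure. The count of members called was 3 without 7-month replicate 4 or end-of-exposure replicate 2, and 2 without 7-month replicate 6 or 10 or end-of-exposure replicate 1. The median of the axonemal genes was -0.29 and that of the Ift genes -0.19, against 0.02 for all genes.

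Other lists also held called genes at 7 months against baseline. Of 15 club and secretory genes, 5 fell, among them Cyp2f2, a club cell cytochrome, by 1.48 ± 0.32 (edgeR adjusted p = 0.0018). The median of all 15 was -1.29, and 14 had a log2 fold change below 0. The exception was Scgb1a1, which was not called (0.74 ± 0.39, edgeR adjusted p = 0.211). Within a letter, 7 of the 15 fell in F and 2 in M. The club list summed to 12785 to 138791 CPM at 7 months and 43525 to 82492 CPM at baseline. Of 10 regulators of ciliated cells, 3 fell: Ccno, a cyclin of basal body amplification, by 1.15 ± 0.30, Mcidas by 1.18 ± 0.40 and E2f5 by 0.51 ± 0.16. Of 45 further axonemal and ciliated cell genes, 0 were called by edgeR, 5 at an unadjusted p under 0.05. Of 12 alveolar type 2 genes, 6 rose, with sums of 17385 to 98165 CPM at 7 months and 18019 to 33248 CPM at baseline. Of 7 cardiac genes, 3 fell, at sums of 161 to 1268 CPM at 7 months and 242 to 6233 CPM at baseline. Without the 5 lungs over 300 CPM of the heart myosin Myh6, 1 member was called at 7 months and 1 at the end of exposure. The part of these cell types in the member values was not tested.

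**Figure D4:**
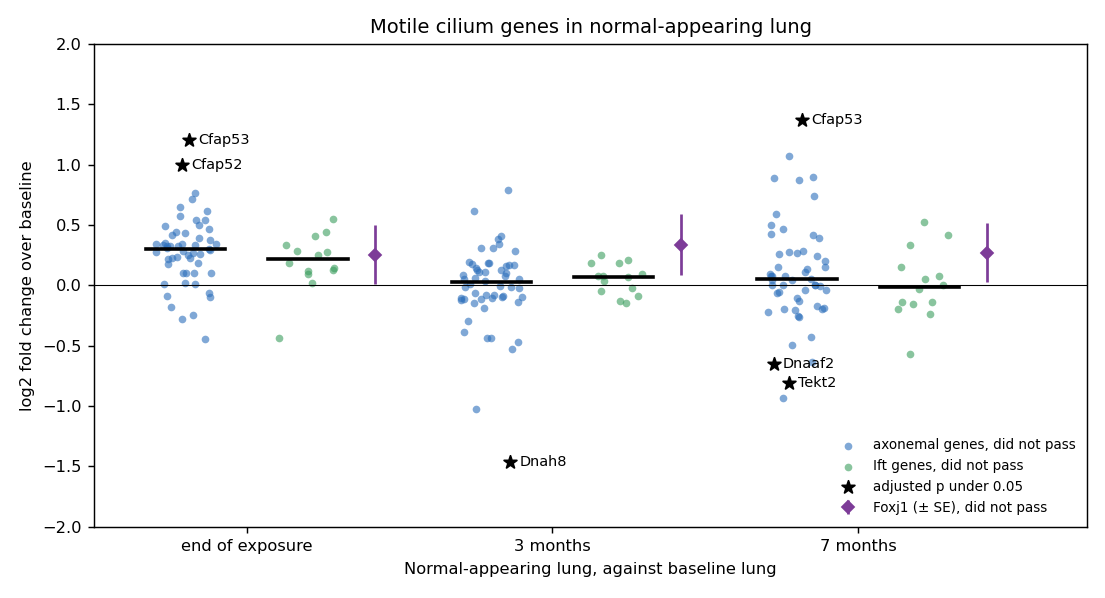
Log2 fold change of the members in normal lung at each later time over baseline, as points with the median of each part as a bar and stars for adjusted p under 0.05. Medians lie between -0.01 and 0.31, and the starred genes are Cfap52, Cfap53, Dnah8, Dnaaf2 and Tekt2.

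Within a time, lungs that had more Foxj1 had more of most axonemal genes. Over 39 lungs, as deviations from the mean of their time on log2(CPM + 1), Pearson's r with Foxj1 had a median of 0.704 over 54 axonemal genes and 0.567 over 14 Ift genes. The most alike was Cfap45 (r = 0.882, Spearman's rho = 0.866, 0.855 without the 2 lungs farthest in Foxj1), followed by Dnali1 (r = 0.868, rho = 0.882, 0.826) and Cfap77 (r = 0.835, rho = 0.875, 0.795). For each of these 3 genes both permutation p-values were 1e-05, the smallest that 100000 permutations can give, among 71 relations computed. Among Ift genes, Ift81 was nearest (r = 0.787, rho = 0.765, 0.731 without the 2 lungs, permutation p = 1e-05), and Ift20 and Ift27 showed little relation (r = 0.119 and 0.037, permutation p = 0.472 and 0.826). Of the axonemal genes, 7 had an r over 0.8 and 7 had an r under 0.5. The lowest were Tekt5 (r = -0.506, rho = -0.46), Dnah17 (r = -0.216) and Cfap97 (r = -0.118), with Dnah8 at 0.179. All values share the same libraries. The deviations took out the mean of the time but not the letter of the animal, whose part was not tested. The relation was not computed over all genes, so nothing particular to the members can be read from it. For comparison, r with Foxj1 was 0.352 for Scgb1a1, -0.661 for the alveolar type 2 gene Sftpc and -0.048 for Myh6.

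Normal lungs of animals with the letters M and F parted at the later times. This comparison was chosen after the data were seen. At 3 and 7 months together, M minus F, 33 of 69 members were higher in M and 2 lower (Cfap97 and Ift74), against 34.0% of all genes called either way. The median log2 difference was 0.58 for axonemal genes, 0.42 for Ift genes and 0.01 for all genes. At baseline and the end of exposure together, 0 of 69 members were called by edgeR and 0 had an unadjusted p under 0.05, against 7 called genes (0.0470%) and 1090 at an unadjusted p under 0.05 in all. The difference between those contrasts was called for 15 of 69 members, 14 axonemal and Ift57, all toward higher M later, against 7.74% of all genes. Foxj1 was not among them (0.47 ± 0.35, edgeR adjusted p = 0.394).

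Cfap74, a central pair protein, stood at 119, 125, 176, 184 and 233 CPM in the M lungs at 7 months, against 14.5, 31.5, 37.2, 59.7 and 125 CPM in the F lungs. The letters met only at 125 CPM, and at 3 and 7 months together M was higher by 1.66 ± 0.30 (edgeR adjusted p = 0.000137). Dnah8 stood at 14, 23.6, 25.6 and 28.5 CPM in the M lungs at 3 months, against 4.72, 6.12, 6.80, 8.02 and 8.06 CPM in the F lungs, with no overlap. At baseline the order was the other way round, at 9.44, 22.9, 30.6, 38.6 and 48.8 CPM in M and 40.5, 43.7, 45.9, 51.2 and 53.7 CPM in F. Within a letter, Dnah8 at 3 months against baseline was lower by 2.80 ± 0.36 in F (edgeR adjusted p = 2.53e-05), and its log2 fold change was -0.39 ± 0.36 in M (edgeR adjusted p = 0.758). The difference between M and F at the later times minus that at the earlier times was 1.68 ± 0.36 for Dnah8 (edgeR adjusted p = 0.00565). Of 70 members tested within letters, Dnah8, Rsph1 and Tekt3 fell in F at 3 months, against 4.53% of all genes, and Dnah8, Rsph14 and Cfap20 fell in F at 7 months, against 6.43%. In M at 7 months 6 rose and 1 fell, against 12.7%, with Cfap53 rising by 1.98 ± 0.40. At the end of exposure 0 members were called by edgeR in M or F, 8 and 4 at an unadjusted p under 0.05, against 0.537% and 3.26% of all genes. In M at 3 months 0 were called and 12 had an unadjusted p under 0.05, against 0.680% of all genes. In other lists, 5 of 15 club genes (33.3%) and 6 of 12 alveolar type 2 genes (50%) were higher in M at the later times, and 0 lower. Of all 14907 genes, 2534 were higher in M and 2537 lower, 34.0% in all. Alveolar type 1 genes went mostly the other way, with 1 of 9 higher in M, 4 lower and a median log2 difference of -0.45. Club sums were 50071 to 138791 CPM in M and 12785 to 66809 CPM in F, and alveolar type 2 sums 24980 to 98165 CPM in M and 17385 to 42186 CPM in F. Their part in the difference was not tested.

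**Figure D5:**
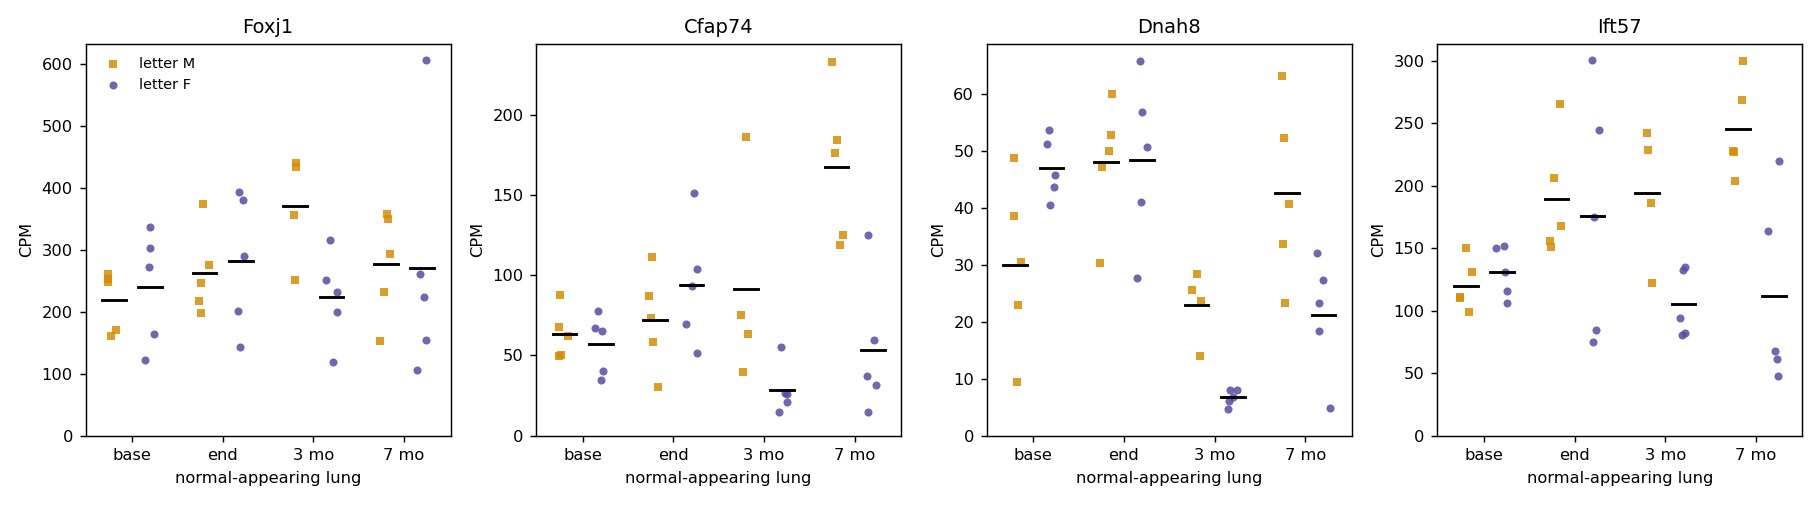
Levels in normal lungs by time and animal letter in CPM, with M squares left of F circles and bars for means. For Cfap74 at 7 months the M lungs run from 119 to 233 CPM and the F lungs from 14.5 to 125 CPM.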

How the data were processed

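Per the labels' protocols, 10 ng of total RNA per library was amplified with the Ion AmpliSeq Transcriptome Mouse panel and sequenced on the Ion Proton with 8 libraries per chip. The authors deposited whole-number counts per gene, not normalized; no aligner or genome build is named in the sources used here. Of its library columns, 72 matched a sample title and 2 did not and were not used. A further 27 gene symbols had become calendar dates and were put back by their amplicon identifiers.

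The edgeR 4.0.16 quasi-likelihood test (filterByExpr, TMM factors, robust fit; R 4.3.3, limma 3.58.1) was run on the counts, with Benjamini-Hochberg adjustment over all genes tested and a threshold of 0.05. The fit of the 39 normal lungs held 4 time groups and 14907 genes. The tumor fit held counts summed per animal and the own lung of 16 animals, with the animal as the block, and 15457 genes. The pairing comes from the animal names in the labels; the deviations of tumor and own lung correlated at -0.0636 to 0.409 (median 0.226), over 0.1 in 11 of 16 pairs. SE is the log2 fold change divided by the square root of F. The letter contrasts used a fit with letter and time, and 8 groups for changes within a letter. No libraries of a group agreed within sampling noise (smallest chi-square per gene 28.7).

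Genes named are Foxj1, all Ift genes, the 2 highest of each family, up to 10 called members of smallest p per direction, up to 3 against the majority, and those under 1 CPM. The further genes named in the text, such as Dnah5, Cfap73, Cfap74, Cfap20 and those of other lists, were chosen after their values were seen. The members and lists were chosen with earlier results of these data known. Alternatives were DESeq2 1.42.0, size factors of its kind in edgeR, scaling by total counts, no filter on low counts, the letter as covariate, the groups alone, no block, each tumor library alone, tumors without ADC titles (a code the labels do not define), and leaving out lungs, animals, or lungs over 300 CPM of Myh6. Leaving out tumors by Foxj1 or Krt5 and the letter contrasts were added after seeing the data. Statistics used Python 3.11.15, pandas 2.3.3, scipy 1.17.1 and matplotlib 3.10.9. The scripts were tested on simulated counts with the same spread for every gene, so recovery in the real data may differ. A true log2 change of 1 was recovered in 61% of genes for normal lung at 7 months against baseline. Recovery was 95% in the mean over 16 animals and 8% in tumors at the end of exposure. For a change of 2 it was 100%, 100% and 74%. False calls made up 4.73%, 2.99% and 6.82% of calls.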

Additional observations from a re-analysis of the deposited data

Results flagged for a closer look

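In groups of 4 to 10 libraries, 264 groups over 44 quantities were examined for a library far from the others by Dixon's criterion at the 95% level, which chance alone meets in about 1 in 20 groups; 32 met it. Most of them were 1 tumor, 3-month tumor replicate 2, which was the highest of its group with an axonemal sum of 2262 CPM. Its Foxj1 was at 229 CPM. Among genes of the outer and inner arms, Dnah9 was at 99.2, Dnah3 at 40.6, Dnaic1 at 49.0, Dnaic2 at 21.6, Dnali1 at 211 and the assembly factor Dnaaf1 at 48.6 CPM. Spoke genes Rsph1, Rsph4a and Rsph9 were at 174, 149 and 48.6 CPM, and Tekt1 and Tekt4 at 84.5 and 50.1 CPM. Of the Cfap genes, Cfap45 was at 151, Cfap52 at 45.5, Cfap53 at 16.5, Cfap69 at 23.9, Cfap77 at 63.0 and Cfap161 at 39.8 CPM. Its Ift57, Ift172 and Ift27 were at 132.0, 23.9 and 19.4 CPM.

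The other libraries far from their group were few. Tumor replicate 3 at the end of exposure held 33.7 CPM of Ift81, 4.57 of Tekt4 and 9.84 of Cfap77. Normal lung replicate 4 at 7 months held 608 CPM of Foxj1, 118 of Ift22 and 107 of Ift74, and replicate 9 at 3 months 80.3 CPM of Ift52. Normal lung replicate 3 at the end of exposure held 218 CPM of Dnah3 and 66.6 of Dnah7b, and baseline replicate 5 held 146 CPM of Rsph4a.

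In normal lung, the difference between animals with the letter M and those with the letter F changed between the earlier times (baseline and end of exposure) and the later ones (3 and 7 months) in 15 members, by edgeR's test of that change with Benjamini-Hochberg adjustment at 0.05. The change, on the log2 scale, was 1.77 for Cfap74, 1.68 for Dnah8, 1.49 for Rsph1, 1.48 for Dnah12, 1.47 for Cfap53, 1.40 for Cfap61, 1.34 for Dnah3, 1.33 for Dnah9 and 1.23 for Dnah1. It was 1.18 for Cfap221, 1.16 for Cfap44, 1.11 for Dnah6, 1.07 for Dnaic1, 1.03 for Dnali1 and 1.02 for Ift57. What the letters stand for is not given in the labels, but by Xist and the Y-linked genes M was male and F female.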

How the results depend on the processing

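Counts of called members changed with the processing most in tumors at the end of exposure and at 3 months, and in proportion also in some normal lung comparisons. At the end of exposure against baseline the count of 2 became 4 with total counts alone, 5 with DESeq2, 1 without the Myh6 lungs, 6 with the groups alone, and 0 to 5 when 1 lung was left out. At 3 months it was 1 whichever lung was left out. At 7 months the count of 3 became 5 with the letter as covariate, 1 without the Myh6 lungs and 3 to 6 when 1 lung was left out. For 7 months against the end of exposure the count of 1 became 2 with total counts, 3 with DESeq2, 2 with the letter, 2 without the Myh6 lungs, 0 with the groups alone and 0 to 3 when 1 lung was left out. In tumors at the end of exposure the count of 13 became 4 with no filter, 53 with DESeq2, 34 without the tumors over 200 CPM of Foxj1, 20 without the Krt5 tumor and 0 when any animal was left out. In tumors at 3 months the count of 19 became 30 with total counts, 9 with no filter, 50 with DESeq2, 31 with each tumor library on its own, 52 without the tumors over 200 CPM of Foxj1 and 4 to 50 when 1 animal was left out. Without the replicate block these counts were 22 at the end of exposure and 12 at 3 months. When 1 animal was left out, the count of 62 in the mean over 16 animals became 61 to 64, the count of 57 at 7 months became 55 to 59, and that for 7 months minus the earlier times was 0 each time. The cause of these changes was not tested.

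With total counts alone the median log2 fold change of all genes in tumors moved to -0.24 in the mean, -0.04 at the end of exposure, -0.37 at 3 months and -0.24 at 7 months. Rises then made up 26.9%, 30.8%, 19.7% and 24.8% of calls, against 48.9%, 42.6%, 48.3% and 47.7% in the main scaling. For 7 months against the end of exposure in normal lung the share was 32.9% against 56.9%. No called fold change of a member, nor that of Foxj1, reversed under any alternative run. Of the members not called in tumors, only Ift80 changed sign in alternatives that left out no animal (0.04 in the main scaling, -0.19 with total counts, -0.01 with DESeq2 or size factors of its kind). Groups of 4 tumors of 3 animals limit what could be called.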
